A study of Homo sapiens with 4 samples.

Results

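The enzymes that make the building blocks of DNA and RNA were followed through 9 genes, out of the 19740 genes that the array's probes name: RRM1 and RRM2 (the subunits of ribonucleotide reductase), TYMS, DUT, TK1, DTYMK and DCK (the thymidylate and deoxynucleoside branches) and CAD and UMPS (the de novo pyrimidine pathway). They were chosen by name for their place in nucleotide synthesis, with earlier results of these data known. All non-control probes carrying the symbol or a RefSeq accession of these genes were taken, which gave 10 probes, 2 of them for DUT. The cells were Hs746T, an established gastric carcinoma line in which MET is amplified and also mutated so that its exon 14 is skipped, grown in DMEM with serum. MET is a receptor tyrosine kinase, and the question was how gene expression changes when it is suppressed. RNA came from cells given the vehicle DMSO, cells given PHA665752, a small-molecule MET kinase inhibitor whose dose and duration for the array are not given in the sources used here, cells transfected with a control siRNA labelled sc siRNA, and cells transfected with a MET siRNA. The siRNA cells were harvested 48 hours after transfection. Each condition was hybridised to 1 single-colour array, so no difference below has a replicate check or a test, and the spread between cultures is unknown.

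A cell makes deoxynucleotides by reducing ribonucleotides, which is the work of ribonucleotide reductase, and makes thymidylate from deoxyuridylate, which is the work of thymidylate synthase. Salvage kinases such as TK1 and DCK recover nucleosides instead, and CAD and UMPS build the pyrimidine ring itself, which serves RNA as much as DNA. The deoxynucleotide enzymes are known for being made mostly around S phase, and several of them are targets of, or activate, drugs used against gastric and other carcinomas, among them the fluoropyrimidines for TYMS and gemcitabine for RRM1, RRM2 and DCK.

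The DNA just upstream of these genes is shown for the pair that makes up ribonucleotide reductase, for TYMS, and for DUT and CAD, because RRM2 and TYMS had the largest and CAD and DUT the smallest differences between the PHA665752 and DMSO arrays. Each line holds the 250 bases before an annotated start in GRCh38.p14, from RefSeq, 5′ to 3′ on the gene's strand, which is the plus strand in all of them. They are chr2:10122489-10122738 for RRM2, chr11:4094435-4094684 for RRM1, chr18:657403-657652 for TYMS, chr15:48331947-48332196 for DUT and chr2:27217119-27217368 for CAD. Capitals mark any match, on either strand, to the NF-Y box CCAAT, to an E2F-type site (TTTCCCGC, TTTCGCGC, TTTGCCGC or TTTGGCGC), to the CHR-type element TTTGAA, to the GC box GGGCGG or to the E-box CACGTG.
RRM2: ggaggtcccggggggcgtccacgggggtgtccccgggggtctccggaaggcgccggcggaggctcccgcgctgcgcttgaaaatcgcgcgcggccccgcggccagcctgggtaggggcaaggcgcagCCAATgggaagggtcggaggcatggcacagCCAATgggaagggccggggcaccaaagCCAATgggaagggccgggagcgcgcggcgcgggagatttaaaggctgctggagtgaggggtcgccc
RRM1: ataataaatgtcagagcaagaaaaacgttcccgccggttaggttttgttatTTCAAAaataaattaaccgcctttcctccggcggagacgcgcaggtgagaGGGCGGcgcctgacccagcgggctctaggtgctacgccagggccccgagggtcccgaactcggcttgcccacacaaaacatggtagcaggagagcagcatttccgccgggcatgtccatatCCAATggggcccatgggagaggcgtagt
TYMS: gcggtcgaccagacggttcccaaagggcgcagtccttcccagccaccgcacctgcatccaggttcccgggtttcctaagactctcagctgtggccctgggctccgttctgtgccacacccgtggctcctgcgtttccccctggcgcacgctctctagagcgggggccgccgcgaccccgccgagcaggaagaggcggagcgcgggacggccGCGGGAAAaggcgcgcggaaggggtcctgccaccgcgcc
DUT: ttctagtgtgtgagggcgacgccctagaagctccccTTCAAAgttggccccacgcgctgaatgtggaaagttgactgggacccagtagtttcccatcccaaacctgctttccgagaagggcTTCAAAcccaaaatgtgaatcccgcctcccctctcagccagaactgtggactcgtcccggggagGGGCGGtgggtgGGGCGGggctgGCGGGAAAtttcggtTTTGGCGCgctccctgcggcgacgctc
CAD: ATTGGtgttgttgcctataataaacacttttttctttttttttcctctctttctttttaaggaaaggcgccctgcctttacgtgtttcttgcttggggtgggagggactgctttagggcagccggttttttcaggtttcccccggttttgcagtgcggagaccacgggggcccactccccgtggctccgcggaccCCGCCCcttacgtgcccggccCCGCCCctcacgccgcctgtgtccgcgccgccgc

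The RRM2 window held 3 NF-Y boxes, the TYMS window 1 E2F-type site, and this DUT window 2 E2F-type sites, 2 CHR-type elements and 2 GC boxes. RRM1 had 1 NF-Y box, 1 CHR-type element and 1 GC box, and CAD had 2 GC boxes with 1 NF-Y box at the far edge of the window. Over all starts of the 9 genes, 14 in number, an NF-Y box stood before 6 (5 genes: CAD, DTYMK, RRM1, RRM2 and TK1), against 32.0% of 35116 promoters in the same table. An E2F-type site stood before 2 starts (TYMS and DUT), against 2.79% of all promoters, and a CHR-type element before 3 (DUT, RRM1 and UMPS), against 13.3%. A GC box stood before 10 starts of 7 genes, against 42.6%, and an E-box before 1, that of DCK, against 6.34%. The windows of 1 gene with several starts partly overlap, no match to one motif overlapped a match to another, and a match of letters shows neither a bound site nor a cause.

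**Figure D1:**
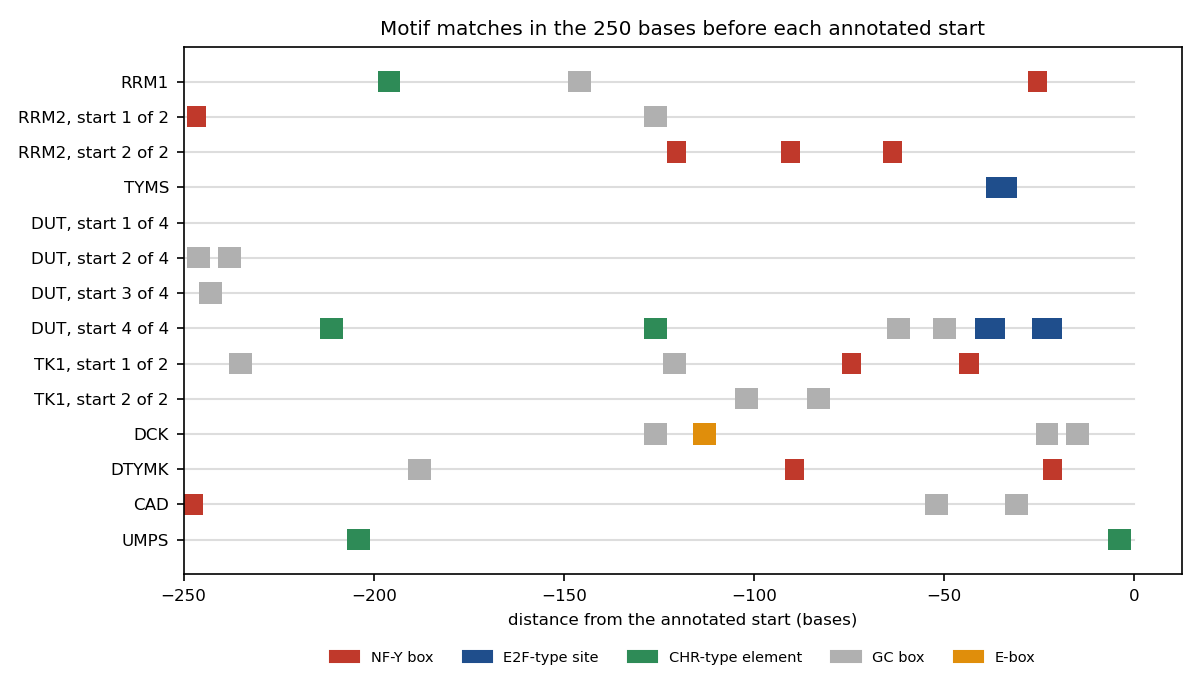
Matches to the 5 motifs in the 250 bases before each of the 14 annotated starts of the 9 genes; the horizontal axis is the distance from the start in bases, starts of a gene are numbered by position on the chromosome, and each block is 1 match. The 3 NF-Y boxes of RRM2 lie before its start 2 of 2, and the 2 E2F-type sites of DUT before its start 4 of 4.

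All 10 probes were well above background on all 4 arrays and none was saturated. Every one of the 10 gave its highest scaled signal on the DMSO array, a marked TK1 spot included, and its lowest on the PHA665752 array, with the siRNA arrays between. The scanner software put the error of these spots at 10.0% to 10.8% of the signal, which is 0.20 to 0.21 on a log2 ratio, and for probes spotted repeatedly the spread between spots came to 0.08 on a log2 ratio. Neither covers differences between cultures. Signals below are the processed intensities of the scanner software. A log2 ratio compares arrays after each was scaled to the 75th percentile of its own signals, which was 990 for DMSO, 854 for PHA665752, 831 for sc siRNA and 858 for MET siRNA.

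**Figure D2:**
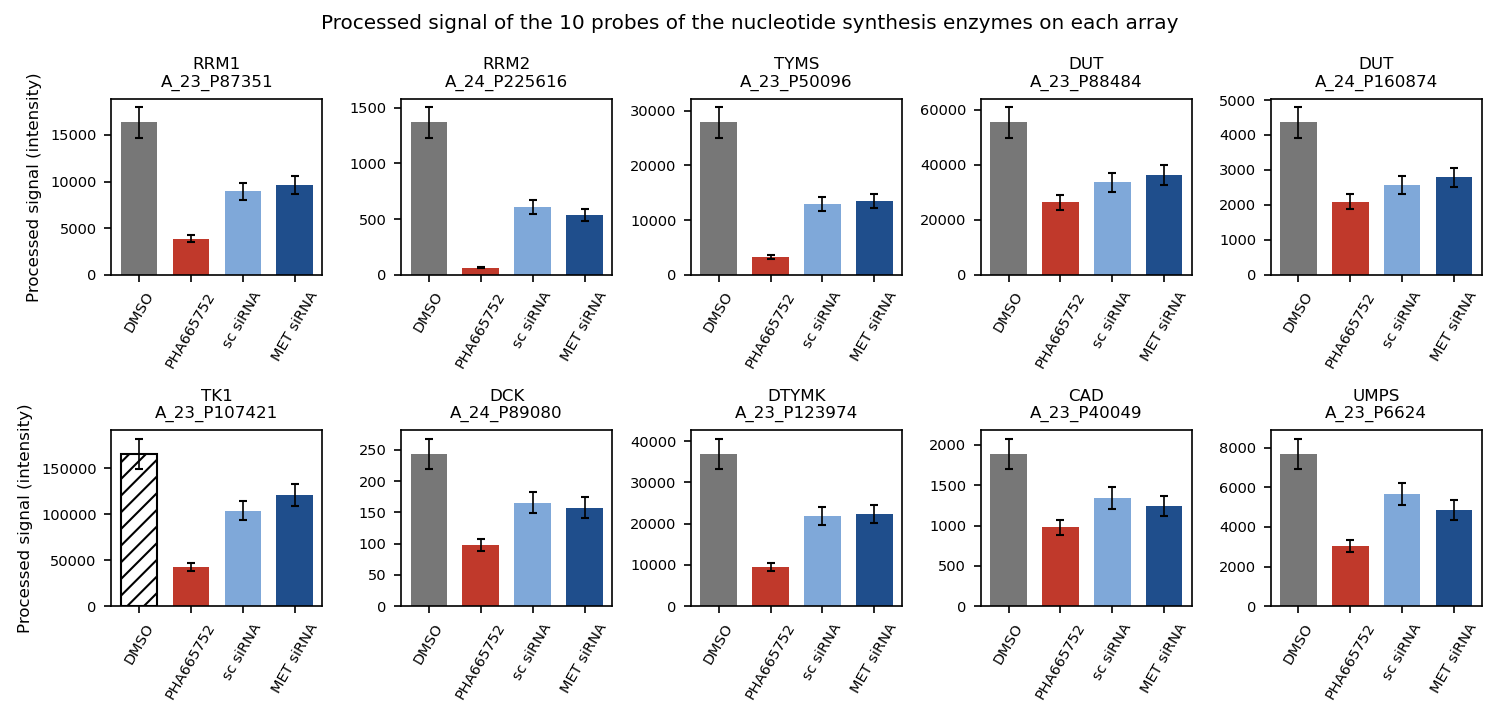
Processed signal (intensity, linear axis from 0, unscaled) of each of the 10 probes on the DMSO, PHA665752, sc siRNA and MET siRNA arrays; bars are 1 spot each and error bars the scanner software's own error. The PHA665752 bar is the lowest for every probe, from 62.7 against 1367 on DMSO for RRM2 to 976 against 1888 for CAD, and the hatched TK1 bar is a spot the software marked as an outlier.

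The inhibitor array showed the largest difference in RRM2, the small subunit of ribonucleotide reductase, which carries the radical that the reaction needs. The RRM2 probe (A_24_P225616) read 1367 on DMSO, 62.7 on PHA665752, 608 on sc siRNA and 536 on MET siRNA. Only the PHA665752 array stood far below the rest: the log2 ratio to DMSO was -4.23, 18.8-fold lower and rank 15 when the 14811 genes with a ratio are ordered from the lowest. With the normexp background correction, which adds an offset that draws dim signals together, it was -3.42. RRM1, the large subunit that holds the catalytic and regulatory sites, read 16342, 3860, 8955 and 9625 in the same order, a log2 ratio of -1.87 for PHA665752 over DMSO (3.65-fold lower, rank 310). Within this pair of arrays RRM2 was lower by a further 5.15-fold than RRM1. The scaling does not enter this gap, but the background correction does. In these cell-line cultures, fewer cells that make a transcript and less of it per cell cannot be told apart.

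RRM2B, the p53-inducible small subunit that serves DNA repair and mitochondrial DNA outside S phase, went the other way. Its brightest probe read 342 on DMSO and 488 on PHA665752, a log2 ratio of 0.73, and its second probe gave 0.27, so the size differed between probes. By the brightest RRM2B probe, the gap between RRM2 and RRM2B in that pair was 31.2-fold. It was smaller by the second probe and with the normexp background correction. In MET siRNA over sc siRNA the same gap was 1.23-fold.

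The thymidylate branch was lower too, and unevenly. TYMS, which methylates dUMP to dTMP and uses a folate to do so, read 27865 on DMSO, 3245 on PHA665752, 12922 on sc siRNA and 13507 on MET siRNA. The siRNA arrays were alike and the PHA665752 array was far below them, with a log2 ratio to DMSO of -2.89 (7.40-fold lower, rank 81). DTYMK, the kinase that takes dTMP on to dTDP, read 36904, 9414, 21836 and 22297, a log2 ratio of -1.76 (3.38-fold lower, rank 371). TK1, the cytosolic kinase that salvages thymidine, read 165672, 42625, 103968 and 120804. Its DMSO spot carried the software's outlier mark for the local background, so TK1 has no ratio over DMSO in the counts here. With the mark left unused, the log2 ratio was -1.75 (3.37-fold lower), beside 0.44 for TK2, its mitochondrial counterpart, on the same values.

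DUT, the dUTPase that keeps uracil out of DNA and supplies TYMS with dUMP, differed less. The probe A_23_P88484 read 55346 on DMSO, 26254 on PHA665752, 33542 on sc siRNA and 36385 on MET siRNA, and the probe A_24_P160874 read 4357, 2091, 2566 and 2786. Both gave nearly the same ratio for PHA665752 over DMSO, -0.86 and -0.84 on the log2 scale, short of the 2-fold line. DUT has nuclear and mitochondrial forms from alternative starts, and which forms each probe binds was not determined. TYMS was lower than DUT by a further 4.07-fold.

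DCK, which phosphorylates deoxycytidine and the drugs built on it, lay near the 2-fold line. Its probe read 243 on DMSO, 97.9 on PHA665752, 166 on sc siRNA and 158 on MET siRNA, a log2 ratio of -1.10 for PHA665752 over DMSO (2.14-fold lower, rank 1004). With the normexp background correction the ratio was -0.66, and with plain background subtraction -0.95, both within 2-fold.

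The pyrimidine ring enzymes were also lower. CAD, the trifunctional protein that opens the pathway, read 1888 on DMSO, 976 on PHA665752, 1339 on sc siRNA and 1244 on MET siRNA, a log2 ratio of -0.74 for PHA665752 over DMSO (1.67-fold lower, rank 1890). UMPS, which closes the pathway by making UMP, read 7686, 3030, 5676 and 4856, a log2 ratio of -1.13 (2.19-fold lower, rank 953). The median log2 ratio was -0.93 for these 2 genes and -1.81 for the 6 deoxynucleotide genes with a ratio, and DUT in the second group lay, with DCK, between CAD and UMPS.

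In PHA665752 over DMSO, 6 of the 8 enzymes with a ratio (RRM2, TYMS, RRM1, DTYMK, UMPS and DCK) were more than 2-fold lower and none was higher, where 7.95% of all genes with a ratio were past 2-fold lower and 13.1% past 2-fold higher. The median over the 8 was -1.44, beside 0.08 over all genes. All 9 probes with a ratio differed by more than the software's error.

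**Figure D3:**
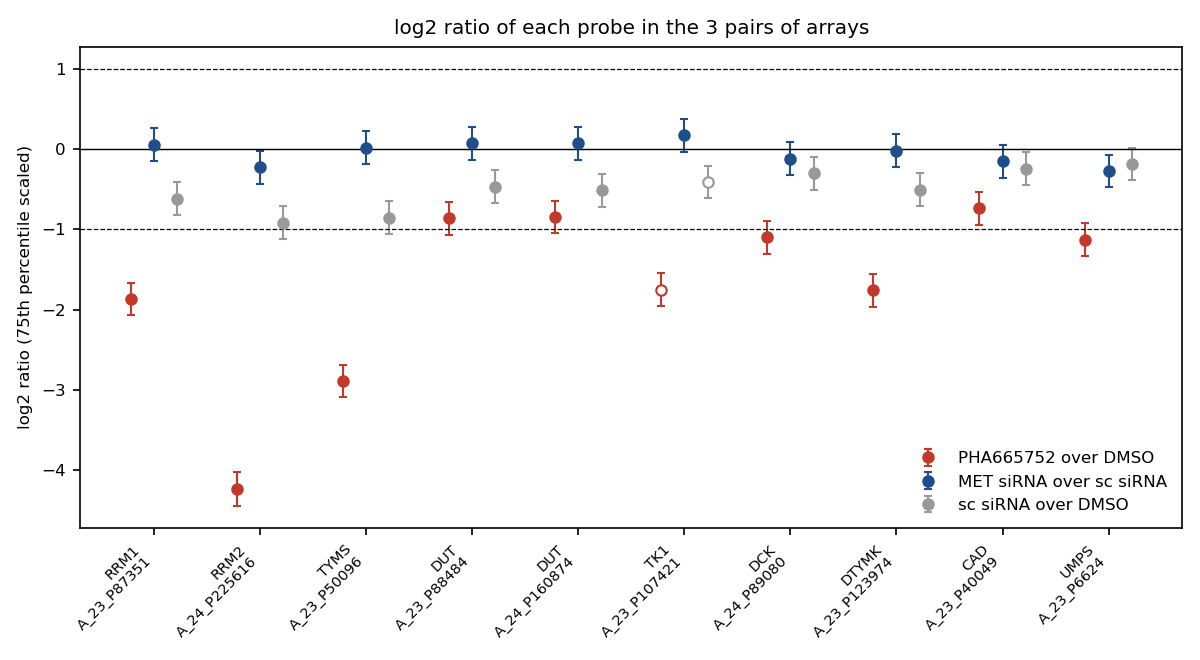
log2 ratio of each probe (vertical axis, after 75th percentile scaling) in PHA665752 over DMSO, MET siRNA over sc siRNA and sc siRNA over DMSO; error bars are the scanner software's error, open points use a spot marked as an outlier, and dashed lines are 2-fold. The PHA665752 points run from -4.23 (RRM2) to -0.74 (CAD), the MET siRNA points from -0.27 (UMPS) to 0.17 (TK1).

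With the MET siRNA the MET transcript was lower, while these 9 genes lay near their control. The MET probe read 190010 on sc siRNA and 77853 on MET siRNA, a log2 ratio of -1.33, and 221452 on DMSO and 100492 on PHA665752, a log2 ratio of -0.93. Across the same siRNA pair the 9 enzymes had log2 ratios from -0.27 to 0.17, and 0 of 9 passed 2-fold in either direction, where 0.702% of all genes were past 2-fold lower and 2.04% past 2-fold higher. The median of the 9 was -0.02, equal to the median of all genes to 2 decimals.

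Of the 10 probes, 2 differed between the siRNA arrays by more than the software's error. These were UMPS at -0.27 and RRM2 at -0.23, both lower with the MET siRNA. TYMS (0.02), DTYMK (-0.02), RRM1 (0.06) and both DUT probes (0.07) lay close to 0, DCK was at -0.12 and CAD at -0.15, and TK1 was the highest at 0.17. The sign of this family depends on the scaling: with the median of the probes well above background as the reference, all 9 came out below 0, as did the median of all genes.

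The control arrays themselves differed in these genes. In sc siRNA over DMSO all 8 enzymes with a ratio were below 0, from -0.92 for RRM2 and -0.86 for TYMS, through RRM1 (-0.61), DTYMK (-0.50), DUT (-0.47) and DCK (-0.30), to CAD (-0.24) and UMPS (-0.18). None of the 8 passed 2-fold, where 1.15% of all genes were past 2-fold lower and 2.83% past 2-fold higher, and 8 of 9 probes differed by more than the software's error, UMPS being the exception. The median of the 8 was -0.49, beside -0.01 over all genes. This pair shares its DMSO array with the inhibitor pair and its sc siRNA array with the knockdown pair, so the values are set side by side and not related to each other. Transfection, time in culture and the siRNA itself cannot be told apart in this difference.

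Set against the sc siRNA array in place of DMSO, a comparison chosen after the data had been seen, PHA665752 was still the lower array for all 9 enzymes. RRM2 stood at -3.32 (9.97-fold lower), TYMS at -2.03 (4.09-fold), TK1 at -1.32 without any marked spot (2.50-fold), and RRM1 and DTYMK both at -1.25 (2.38-fold). UMPS (-0.94), DCK (-0.80), CAD (-0.49) and DUT (-0.39) were within 2-fold. That left 5 of 9 past 2-fold lower, with 8.33% of all genes past 2-fold lower in that pair. UMPS and DCK are therefore on one side of 2-fold or the other depending on the control array.

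Beyond the 9 enzymes, 67 further genes of nucleotide metabolism were read as 8 lists, and 58 had a ratio of PHA665752 over DMSO. Of these 14 were more than 2-fold lower and 3 more than 2-fold higher, with a median of -0.33. Among all genes 7.95% were past 2-fold lower and 13.1% past 2-fold higher in that pair. In MET siRNA over sc siRNA 55 had a ratio, with 1 past 2-fold higher and 0 lower. The shares of all genes there were 2.04% higher and 0.702% lower. In sc siRNA over DMSO 59 had one, with 3 past 2-fold higher and 0 lower, beside 2.83% and 1.15% of all genes.

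**Figure D4:**
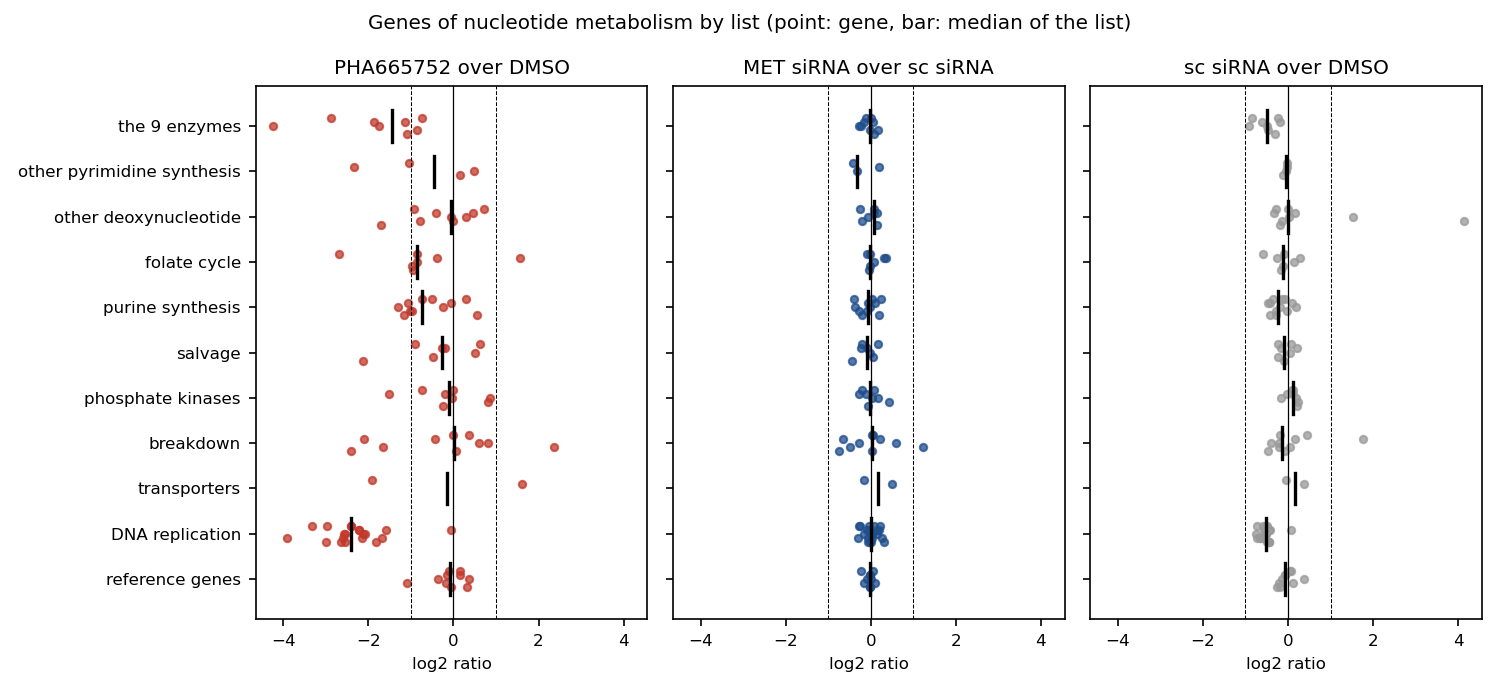
log2 ratio (horizontal axis, the same scale in each panel) of every gene with a ratio in the 9 enzymes, the 8 other lists of nucleotide metabolism, the DNA replication genes and the reference genes, for the 3 pairs of arrays; points are genes, black bars list medians and dashed lines 2-fold. In PHA665752 over DMSO the medians of the 9 enzymes (-1.44) and of the DNA replication genes (-2.40) lie left of the reference genes (-0.08).

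In the rest of the pyrimidine pathway 2 of 4 genes were past 2-fold lower with PHA665752, beside 7.95% of all genes. CTPS1, the CTP synthase of proliferating cells, read 7699 on DMSO, 1319 on PHA665752, 6383 on sc siRNA and 4907 on MET siRNA, a log2 ratio of -2.33 for PHA665752 over DMSO. A second CTPS1 probe gave -2.61. The probes of its paralogue CTPS2 gave 0.48 and -0.10, so they differed in sign. DHODH, the mitochondrial step between CAD and UMPS, was at -1.05, although it came within 2-fold, at -0.88, under another setting. CAD, DHODH and UMPS were thus each lower on the PHA665752 array, by 1.67-fold or more. In MET siRNA over sc siRNA CTPS1 was at -0.43 and CTPS2 at 0.19, and DHODH had no ratio because a spot was marked.

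The other deoxynucleotide enzymes showed smaller differences. Of 9 with a ratio of PHA665752 over DMSO, 1 was past 2-fold lower, where 7.95% of all genes were. This was DCTPP1, which clears modified dCTP, at -1.69. The median of the 9 was -0.06. The mitochondrial kinases TK2 (0.45) and DGUOK (-0.06) and the dNTPase SAMHD1 (0.29, and 0.03 by its second probe) were near or above 0. CMPK2, also a mitochondrial kinase, was lower, at -0.79, and so was NUDT1, at -0.92. Both were within 2-fold here but past it under another setting (-1.04 and -1.17). SAMHD1 and CMPK2, both known as interferon-inducible, were higher on the sc siRNA array than on DMSO, by 1.52 and 4.14 on the log2 scale. NT5C3A, a pyrimidine nucleotidase of the breakdown list, was higher there as well, by 1.76, and these were the 3 genes past 2-fold in that pair.

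The folate enzymes feed TYMS its one-carbon unit, and 6 of 7 were below 0 with PHA665752, with a median of -0.86. Among all genes 6665 of 14811 were below 0 in PHA665752 over DMSO, with a median of 0.08. In MET siRNA over sc siRNA none of the 7 folate enzymes passed 2-fold, with a median of -0.01. There 0.702% of all genes were past 2-fold lower and 2.04% higher.

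Purine synthesis showed smaller differences than the deoxynucleotide genes among the 9 enzymes (median -1.81). They were larger than those of the other deoxynucleotide enzymes (median -0.06). Of 11 genes with a ratio of PHA665752 over DMSO, 9 were below 0 and 4 past 2-fold lower: PPAT, the committed step, at -1.29, PAICS at -1.16, PRPS2 at -1.07 and GART at -1.02. PRPS2 (-0.89) and GART (-0.91) came within 2-fold under another setting, and the count was 3 with quantile normalization and 5 with the 50th percentile. The median was -0.73, and 7.95% of all genes were past 2-fold lower in that pair. In MET siRNA over sc siRNA none of 11 passed 2-fold, with a median of -0.07. There 0.702% of all genes were past 2-fold lower and 2.04% higher.

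Salvage and breakdown enzymes went in both directions with PHA665752. Of all genes 7.95% were past 2-fold lower and 13.1% higher in PHA665752 over DMSO. Of 7 salvage genes 1 was past 2-fold lower, the uridine-cytidine kinase UCK2 at -2.13. HPRT1, which salvages hypoxanthine and guanine, was at -0.90, but came to -1.15 under another setting. The salvage count was 2 with the 50th percentile. APRT, which salvages adenine, was at -0.21. The 8 kinases that act on nucleoside phosphates had a median of -0.11. Of 10 breakdown genes 3 were past 2-fold lower, XDH (-2.40), PNP (-2.10) and NT5E (-1.66), and 1 was past 2-fold higher, ADA, which deaminates adenosine and deoxyadenosine, at 2.37. ADA was also the 1 gene of the 8 lists past 2-fold in MET siRNA over sc siRNA, where it was higher by 1.22, although it came to 0.92 with the scaling to probes well above background. Of the nucleoside transporters 2 were bright enough, SLC29A1 on the cell surface at -1.90 and SLC29A3 of the lysosome at 1.61.

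A list of DNA replication genes was also set beside the 9 enzymes. In PHA665752 over DMSO 19 of 20 were past 2-fold lower, where 7.95% of all genes were, with a median of -2.40. In MET siRNA over sc siRNA 0 of 21 passed 2-fold, with a median of 0.01, beside 0.702% of all genes lower and 2.04% higher. In sc siRNA over DMSO 0 of 20 did, with a median of -0.53, beside 1.15% of all genes lower and 2.83% higher. With shares that low, a count of 0 says little about this list. The medians of the replication genes lay on the same side of 0 as those of the 9 enzymes in the pairs over DMSO. The 20 ratios with PHA665752 ran from -3.92 to -0.07, with RRM2 at -4.23; with the normexp background correction RRM2 was at -3.42, while CDC45, one of the 20, was at -3.80 or lower under every setting. Of the cell cycle phase genes 7 of 8 were past 2-fold lower with PHA665752, with a median of -2.13, and E2F1, which drives S phase genes, was at -3.52. MYC was at -0.60 in PHA665752 over DMSO and -0.57 in MET siRNA over sc siRNA.

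Among 13066 genes measured on all 4 arrays, the pattern nearest to RRM2, by Euclidean distance between log2 values centred on each gene's mean, was that of CDC45 (distance 0.32), followed by CLSPN (0.34), EXO1 (0.45), TCF19 (0.48) and MFSD2A (0.48). The nearest to CAD were MAD1L1 (0.02), POLD2 (0.03), NR6A1 (0.03), WDR41 (0.03) and LRRC45 (0.04). With 4 arrays such a distance mostly reads the PHA665752 array.

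Over the whole array 61.1% to 68.2% of probes were well above background, and the software marked 1.69% to 2.21% of spots as outliers, but 5.58% on the MET siRNA array. KRT8, KRT18, KRT19 and EPCAM, markers of carcinoma cells, were well above background on all 4 arrays, while CDH1 was dim (33.0 on DMSO and 10.4 on MET siRNA). VIM, from the same list, read 291840 on DMSO and 276821 on PHA665752, a log2 ratio of 0.14. Its spots on the siRNA arrays were marked, so it has no ratio there. Of 4 leukocyte markers 2 were well above background on all arrays, CD14 (140 on DMSO) and the brightest PTPRC probe (37.8), with log2 ratios of PHA665752 over DMSO of -0.09 and -0.03, while the T cell marker CD3E was not on any array. The other PTPRC probes differed. A_33_P3309526 was well above background on 2 arrays and gave 1.07, and A_33_P3364811 and A_33_P3364821 were not on any array. All 3 endothelial markers were well above background. PECAM1 read 1846 on DMSO and had log2 ratios of -2.39 for PHA665752 over DMSO, -0.44 for MET siRNA over sc siRNA and -0.58 for sc siRNA over DMSO, VWF had 2.77, 1.13 and 0.47, and CDH5 -0.20, -0.09 and -0.18. The fibroblast marker LUM was not well above background on any array. The other 3 of 4 fibroblast markers were higher, with log2 ratios of PHA665752 over DMSO from 1.69 (DCN) to 3.32 (COL1A1) and log2 ratios of MET siRNA over sc siRNA from 0.52 (COL1A2) to 1.54 (COL1A1). DCN (26.1 on DMSO) and VWF (30.9) were dim. Under another setting DCN came to 0.81 and VWF to 1.56 in PHA665752 over DMSO. VWF also came to 0.55 in MET siRNA over sc siRNA. The part of these markers in the values above was not tested. The 10 reference genes had a median of -0.08 in PHA665752 over DMSO, with PGK1 at -1.08.

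**Figure D5:**
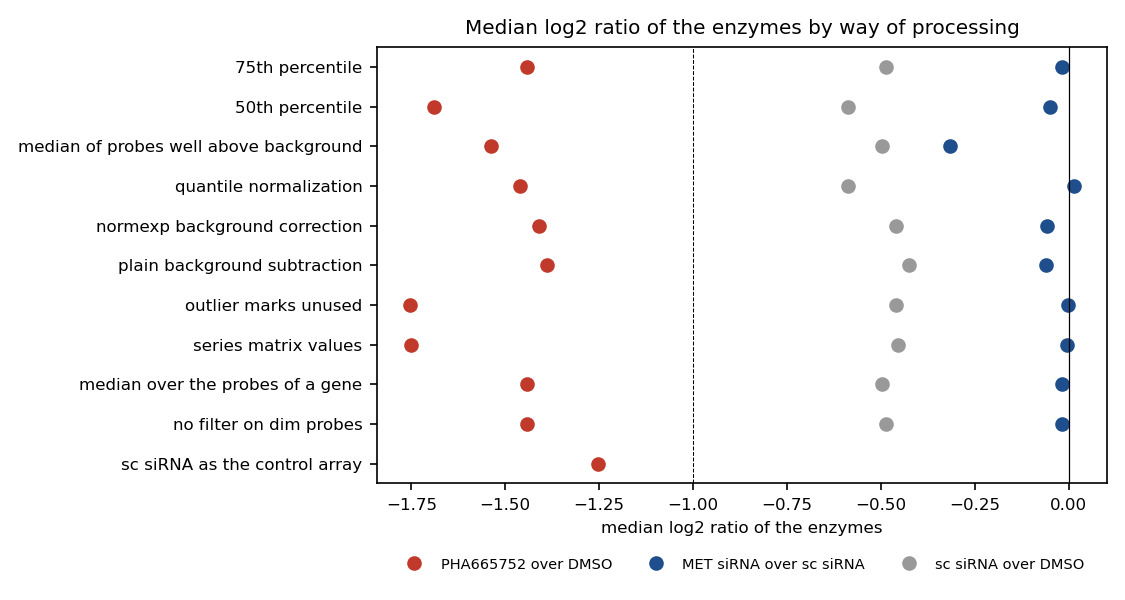
Median log2 ratio of the enzymes with a ratio (horizontal axis) in each of the 3 pairs under 10 ways of processing the signals, and for PHA665752 also with sc siRNA as the control array; the dashed line is 2-fold lower. The PHA665752 medians run from -1.75 to -1.25, the sc siRNA over DMSO medians from -0.59 to -0.42, and the MET siRNA medians from -0.32 to 0.01.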

How the data were processed

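RNA of 4 Hs746T samples, 1 per condition, had been hybridised to single-colour Agilent human arrays on 1 slide. The deposited scanner files hold the authors' intensity values per spot from Feature Extraction (11.5.1.1 per the file headers, an earlier version in the study's methods), background-subtracted, with a software error. GeneSpring GX was used in the study, and the series table repeats the scanner intensity to within 0.05 for probes spotted once. Here spots marked as outliers were dropped, spots of a probe (10 for 999 of 34127 probes) averaged as log2, and each array's 75th percentile subtracted. A ratio needs a probe well above background on at least 1 array of the pair (on only 1, it is a bound). The probe with a value on the most arrays, and among equals the brightest, stood for a gene. "Called" means past 2-fold. No test was run, with 1 array per condition.

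Probe names came from the files and from RefSeq tables (25771 probes, 75.5%). Named were all probes of the 9 enzymes, MET, RRM2B, TK2, DGUOK, DHODH, CTPS1, HPRT1 and APRT, other genes of the 8 nucleotide lists past 2-fold in any pair, and the 5 genes nearest to RRM2 and CAD; some genes the rule names are not reported here. Others (CTPS2, NUDT1, SAMHD1 with PHA665752, E2F1, MYC, PGK1, markers) were named after their values were seen. The spread between spots was read from probes well above background, a limit also set after values were seen. The members and lists were chosen with earlier results of these data known. The motifs were chosen after the upstream windows had been seen, and where a gene has several starts the one with the most matches was printed. The 9 other settings tried were the 50th percentile, the median of probes well above background, quantile and normexp (offset 50) in limma 3.58.1 (R 4.3.3), plain background subtraction, unused outlier marks, the series table, the median over probes and no filter on dim probes. Python 3.11.15, numpy 2.4.6 and pandas 2.3.3 were used, and the calculation was tested on simulated data.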

Additional observations from a re-analysis of the deposited data

How the results depend on the processing

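No paired analysis was possible because each condition has 1 array. The number of enzymes past 2-fold lower in PHA665752 over DMSO was 6 of 8, and 5 to 7 over the 9 other settings. It was 7 with the 50th percentile (DUT joined), with outlier marks unused and with the series table (TK1 joined), and 5 with either background correction (DCK dropped out) or with sc siRNA as the control. The median log2 ratio of -1.44 became -1.69 with the 50th percentile, -1.54 with the median of probes well above background, -1.75 with marks unused, -1.75 with the series table and -1.25 with sc siRNA as the control. With marks unused, the series table or sc siRNA as the control, TK1 has a ratio. Those medians are over 9 enzymes and not 8, so they also reflect the added gene. In MET siRNA over sc siRNA the count was 0 throughout, and the median of -0.02 became -0.32 with the median of probes well above background, a scaling that put the median of all genes at -0.31. In sc siRNA over DMSO the median of -0.49 became -0.59 with the 50th percentile and -0.59 with quantile normalization, and the count of 0 became 1 (RRM2, at -1.01) with the 50th percentile. The 50th percentile put the median of all genes in PHA665752 over DMSO at -0.17 in place of 0.08, and leaving dim probes in put it at 0.20. None of the ratios past 2-fold changed sign in any alternative. The precision of each value is limited by 1 spot on 1 array per condition.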
